A study of Mus musculus with 6 samples.

Results

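The genes described here are the platelet-derived growth factor (PDGF) ligands Pdgfa, Pdgfb, Pdgfc and Pdgfd and the PDGF receptors Pdgfra and Pdgfrb. They were chosen by symbol and are 6 of the 32285 genes in the count tables, with 4 ligands and 2 receptors. The data are single-cell RNA counts (10x Chromium 3′ kit) from adult mouse brain, from cells sorted as endothelial cells (CD31+, Glast-) and as neural stem and progenitor cells (Glast+, CD31-), both CD45-. Cortex and subventricular zone were the source tissues, and mice were 8 to 12 weeks old. There were 3 groups of 2 libraries, labelled Cx43ECiKO, Cx43GlastiKO and Cx43flox/flox. Connexin 43 is the gap junction protein encoded by Gja1. In the Cx43ECiKO group, titled Vecad, the label directs its deletion to endothelial cells, and in the Cx43GlastiKO group to Glast-expressing cells. Cx43flox/flox mice carry the floxed alleles and served as control. According to the labels these are biological replicates, but their cell content split by sort fraction in every group, as given below, and whether the numbers 1 and 2 mark replicates or fractions cannot be told apart. The number of animals behind each library and the means of inducing deletion are not stated there. If they mark fractions, the endothelial-like cells of the libraries numbered 2 are cells left in a CD31- sort. The p-values measure the spread between these libraries, which may then not be that between replicates.

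PDGF ligands are secreted dimers that activate a pair of receptor tyrosine kinases. In the brain, PDGF-B made by endothelial cells is held near the vessel wall and recruits pericytes, the mural cells of capillaries, through PDGFRβ. PDGF-A acts through PDGFRα on oligodendrocyte precursor cells (OPCs). PDGF-C and PDGF-D are secreted with an inhibitory domain that proteases remove.

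Cells were assigned to classes by marker lists that hold none of the 6 genes, so a class's level of a PDGF gene was not used to define it. Names end in "-like" since RNA markers are their only basis. After filtering, 6274 cells were used of 7433 barcodes, and 170 of them (2.71%) met no gate. Libraries held 1735247 to 14859187 UMIs (unique molecules). Median depth per cell ran from 786 UMIs in ECiKO replicate 2 to 10792 in GlastiKO replicate 2. In each group the library numbered 1 was 90.6% to 96.0% endothelial-like, and the library numbered 2 was mostly astroglial-like and oligodendrocyte-like. No pair of libraries shared more than 1 cell barcode. All 12 endothelial, 9 pericyte, 10 astroglial and 9 oligodendrocyte markers were detected in the class they define. Levels are counts per 1000000 UMIs of the class (CPM), with 95% exact Poisson intervals that cover counting error only.

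Gja1, the targeted gene, did not show a loss of RNA counts in the classes the labels name, and deletion itself was not tested. Its level in endothelial-like cells was 223 and 209 CPM for the label ECiKO (269 and 8 UMIs), 138 and 131 CPM for GlastiKO and 90.8 and 111 CPM for control. Both ECiKO libraries were above both control libraries, and edgeR gave 1.22 ± 0.31 as the log2 fold change (SE; adjusted p = 0.0391). That call was lost without control replicate 1 (log2 fold change 1.08, edgeR adjusted p = 0.999), without control replicate 2 (1.25, adjusted p = 0.217) and without ECiKO replicate 1 (0.91, adjusted p = 0.716). It was also lost without a filter on low counts (adjusted p = 0.0794), at a mitochondrial maximum of 10% (0.0707) and by DESeq2 (1.00). In astroglial-like cells, the class of the GlastiKO label, Gja1 was 2455 CPM in GlastiKO replicate 2 (5496 UMIs) and 2551 CPM in control replicate 2 (4707 UMIs), a ratio of 0.962 (0.925 to 1.00). Groups are therefore named by their labels below, and no direction is read as an effect of losing connexin 43.

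Pdgfb, the ligand that recruits pericytes, was an endothelial gene in these libraries. It lies at chr15:79995874-80014977 (minus strand, GENCODE M21, mm10). Endothelial-like cells held 3627 of its 3662 UMIs, a level of 644 CPM (interval 623 to 665). Pericyte-like cells held 11 UMIs, or 19.4 CPM (9.70 to 34.8), choroid plexus-like cells held 10 UMIs, and no UMI fell in 1007 astroglial-like or 3073 oligodendrocyte-like cells. Of endothelial-like cells 74.4% had a Pdgfb UMI at a median depth of 3179 UMIs, and 28.4% after thinning each cell to 500 UMIs. Of astroglial-like cells, with a median depth of 3813 UMIs, none of 1007 had one, which allows a share of cells with a UMI of up to 0.298%; cells that express the gene without a captured UMI are not counted.

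The Pdgfb level in pericyte-like cells was 3.02% of the endothelial level. Of the 12 endothelial markers, Esam (46.1%) and Emcn (33.7%) were above it there, and the others ran from 0.680% to 1.76%, with a median over all of 1.13%. The part of endothelial RNA in this count was not tested. In astroglial-like cells Pdgfb was at least 966-fold lower than in endothelial-like cells, taking 3 UMIs over the class as the upper limit of a count of 0.

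Within libraries, 4 of the 6 genes could be tested between pericyte-like and endothelial-like cells, and all 4 were called. A fit with edgeR over 22 class-by-library sums of at least 10 cells, with library as a block, called 15.7% of 10165 genes higher and 19.5% lower in pericyte-like cells. Pdgfrb and Pdgfa were higher there and Pdgfb and Pdgfd lower. Pdgfb averaged a log2 fold change of -4.86 ± 0.31 (SE; edgeR adjusted p = 1.27e-19). Pdgfc and Pdgfra had too few UMIs for the fit.

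Across groups, Pdgfb in endothelial-like cells stood at 684 and 419 CPM in ECiKO replicates 1 and 2 (825 and 16 UMIs). It stood at 608 and 467 CPM in GlastiKO replicates 1 and 2 (940 and 100 UMIs), and at 669 and 570 CPM in control replicates 1 and 2 (1679 and 67 UMIs). The 3 groups overlapped, and in each the library numbered 2 was the lower one. With edgeR on all 6 libraries the log2 fold change was -0.06 ± 0.28 for ECiKO against control (adjusted p = 1.00) and -0.15 ± 0.27 for GlastiKO against control (adjusted p = 1.00).

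Between libraries of the same number the ratio to control was 1.02 (0.941 to 1.11) for ECiKO replicate 1 and 0.910 (0.839 to 0.986) for GlastiKO replicate 1. It was 0.735 (0.397 to 1.28) for ECiKO replicate 2 and 0.819 (0.595 to 1.13) for GlastiKO replicate 2. The interval of GlastiKO replicate 1 lies below equality for counting error alone, which leaves out the spread between libraries. The sign of the fitted difference turned without control replicate 1 (0.14 for ECiKO, 0.05 for GlastiKO), without ECiKO replicate 2 (0.22 for ECiKO) and without GlastiKO replicate 2 (0.07 for GlastiKO).

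Pdgfd, a ligand of PDGFRβ, was the other gene with its highest level in endothelial-like cells among classes of at least 50 cells, at 67.7 CPM (61.0 to 74.8, 381 UMIs; chr9:6168584-6378850, plus strand). Choroid plexus-like cells followed at 15.9 CPM (8.48 to 27.2) and astroglial-like cells at 10.2 CPM (7.48 to 13.6, 46 UMIs), which did not differ beyond counting error. The astroglial-like level was 15.1% of the endothelial one, where the endothelial markers summed to 0.0432%. Astroglial-like cells were lower than endothelial-like cells by a log2 fold change of -2.23 ± 0.51 (SE; edgeR adjusted p = 0.000241). No Pdgfd UMI was found in pericyte-like or oligodendrocyte-like cells, where it was at least 12.8-fold and at least 487-fold lower than in endothelial-like cells, at 3 UMIs over the class for a count of 0.

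By group, endothelial Pdgfd was 65.5 and 26.2 CPM in the ECiKO libraries numbered 1 and 2 (79 and 1 UMIs), 64.7 and 42.0 CPM in the GlastiKO libraries and 72.5 and 85 CPM in the control libraries. All 4 libraries labelled ECiKO or GlastiKO were below both control libraries, with wide intervals in the libraries numbered 2 (9 UMIs in GlastiKO replicate 2). How many of the 8516 genes tested have this order was not counted, so it is not read as a difference. The log2 fold changes were -0.25 ± 0.36 for ECiKO (SE; edgeR adjusted p = 1.00) and -0.30 ± 0.34 for GlastiKO (edgeR adjusted p = 1.00), neither called. The 2 comparisons share the control libraries.

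Pdgfa, the ligand of OPCs, was low in endothelial-like cells as a whole. It was 20.7 and 26.2 CPM in ECiKO replicates 1 and 2 (25 and 1 UMIs), 22.0 and 23.3 CPM in GlastiKO replicates (34 and 5 UMIs), and 19.9 and 0 CPM in control replicates (50 and 0 UMIs). Control replicate 2, with 44 endothelial-like cells, could have held up to 25.5 CPM, the level of 3 UMIs. The edgeR log2 fold changes were 0.25 ± 0.54 for ECiKO and 0.35 ± 0.49 for GlastiKO (adjusted p = 1.00 in both).

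None of the 3 PDGF genes tested in endothelial-like cells was called between groups. Of 8516 genes tested, edgeR called 0.0235% higher and 0.2% lower for ECiKO, and 0.0939% higher and 0.2% lower for GlastiKO, 19 and 25 genes in all. An unplanned run left out the endothelial cluster that came mostly from control replicate 1 (31 of 34 cells). Without it edgeR called 1 gene for ECiKO and 10 for GlastiKO. The cluster was picked for that share, so fewer calls against control do not test what these cells contribute. DESeq2 on all endothelial-like cells called 3 and 2. The PDGF genes stayed uncalled in each of these fits, with Pdgfb at -0.07 for ECiKO and -0.16 for GlastiKO without the cluster.

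**Figure D1:**
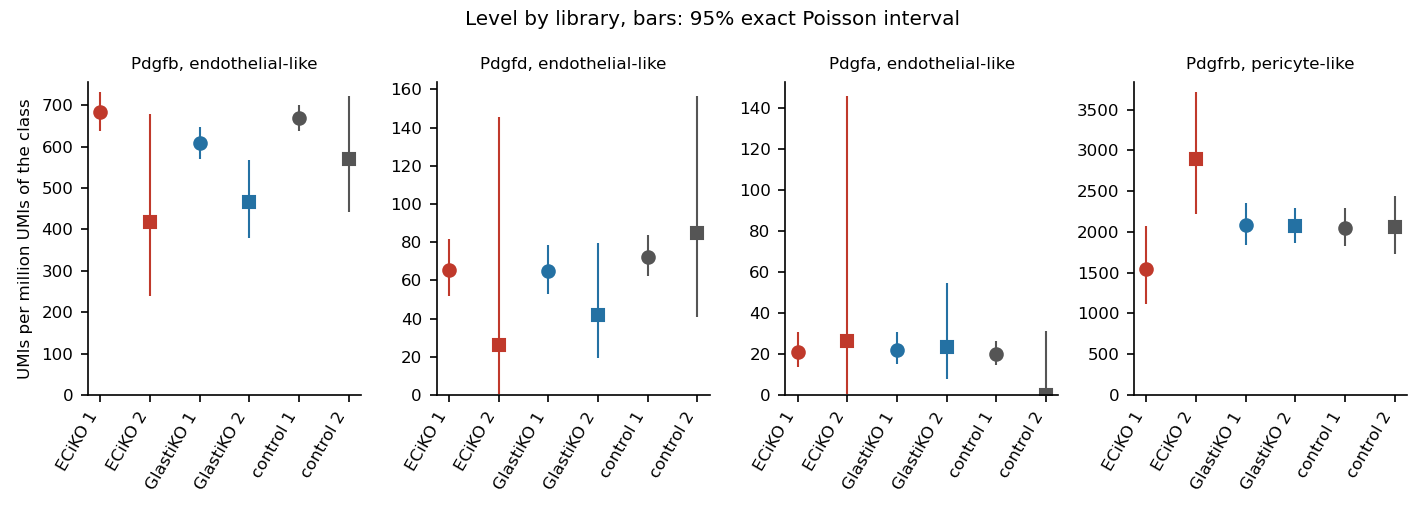
Level of endothelial Pdgfb, Pdgfd and Pdgfa and of pericyte Pdgfrb in CPM of the class, for each library (circles, replicate 1; squares, replicate 2; bars, 95% exact Poisson interval). The groups overlap for Pdgfb, and ECiKO replicate 1 (1541 CPM) and replicate 2 (2899 CPM) stand on either side of the 4 other libraries for Pdgfrb.

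The low endothelial average of Pdgfa hid a difference between vessel types. Endothelial-like cells were divided by 4 marker lists, and arterial, capillary and venous cells of the libraries numbered 1 were compared. This test was added after the data were seen. The remaining gate, sprouting or fenestrated, had 22 cells in control replicate 1, with Pdgfa at 8.01 CPM (1 UMI), Pdgfb at 721 CPM and Pdgfd at 120 CPM (15 UMIs). Cells that met no subtype gate held Pdgfa at 90.7, 52.2 and 23.6 CPM in ECiKO, GlastiKO and control replicate 1. Arterial cells held Pdgfa at 132 CPM in ECiKO replicate 1 (7 UMIs), 101 CPM in GlastiKO replicate 1 (10 UMIs) and 86.7 CPM in control replicate 1 (10 UMIs). Capillary cells held it at 7.93, 12.6 and 14.0 CPM in the same libraries. Each arterial value was above every capillary one. Smooth muscle-like cells, 10 over all libraries, held Pdgfa at 682 CPM, and the part of their RNA in the arterial values was not tested.

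The fit with edgeR over the subtype sums, library as block, gave Pdgfa a log2 fold change of 3.15 ± 0.68 for arterial over capillary cells (SE, n = 3 libraries; adjusted p = 0.00014). This fit called 4.72% of 4236 genes higher and 4.08% lower in arterial cells. Venous cells, at 45.8, 38.7 and 65.3 CPM from 3, 2 and 7 UMIs in ECiKO, GlastiKO and control replicate 1, exceeded capillary cells in every library. That difference was not called (2.16 ± 0.81, edgeR adjusted p = 0.0805), and between arterial and venous cells Pdgfa differed by 0.99 ± 0.79 (edgeR adjusted p = 0.551).

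Pdgfd was also higher in arterial than in capillary cells, at 94.2 against 62.5 CPM in ECiKO replicate 1, 161 against 56.7 CPM in GlastiKO replicate 1 and 173 against 65.7 CPM in control replicate 1. The log2 fold change was 1.31 ± 0.34 (SE; edgeR adjusted p = 0.00351), with an adjusted p of 0.128 without GlastiKO replicate 1 and 0.151 by DESeq2. Arterial cells exceeded venous cells, at 30.5, 58.0 and 46.6 CPM in ECiKO, GlastiKO and control, by 1.75 ± 0.53 (edgeR adjusted p = 0.019). In that fit 4.56% of genes were called higher and 3.73% lower in arterial cells. This call was lost with DESeq2 (adjusted p = 0.168), without a filter on low counts (0.0541) and without GlastiKO replicate 1 (0.106).

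Pdgfb was spread more evenly over the vessel types. Arterial cells held 490, 613 and 719 CPM and capillary cells 723, 626 and 683 CPM in ECiKO, GlastiKO and control replicate 1, a log2 fold change of -0.08 ± 0.21 (SE; edgeR adjusted p = 0.914). Venous cells held 504, 251 and 438 CPM in those libraries, below the capillary value in each. Their log2 fold change against capillary cells was -0.71 ± 0.23 (edgeR adjusted p = 0.0307), in a fit that called 3.59% of genes higher and 4.44% lower. The call was lost with DESeq2 size factors (adjusted p = 0.0582), with DESeq2 (0.278), without control replicate 1 (0.249) and without GlastiKO replicate 1 (0.249). Each subtype sum rests on 14 to 29 arterial and 15 to 27 venous cells.

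**Figure D2:**
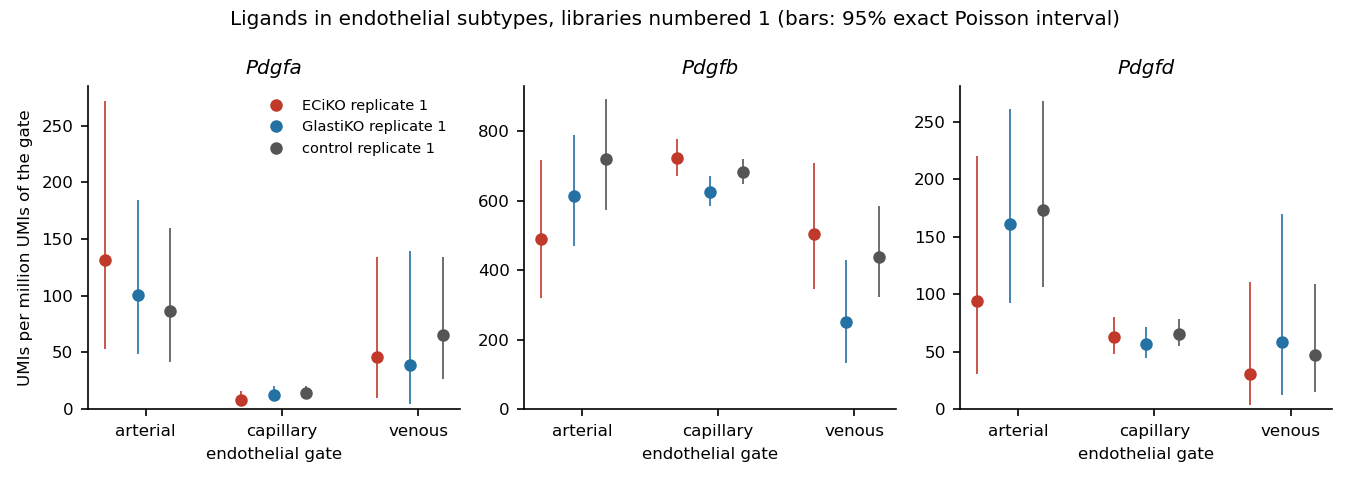
Pdgfa, Pdgfb and Pdgfd in CPM of arterial, capillary and venous endothelial gates, for the 3 libraries numbered 1 (bars, 95% exact Poisson interval). Pdgfa sits at 86.7 to 132 CPM in arterial and at 7.93 to 14.0 CPM in capillary cells.

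Pdgfrb, the receptor through which PDGF-B holds pericytes on the vessel, was highest in pericyte-like cells, at 2072 CPM (1955 to 2194, 1173 UMIs; chr18:61045150-61085061, plus strand). Smooth muscle-like cells, 10 in all, followed at 988 CPM (712 to 1335), fibroblast-like cells, 9 in all, at 275 CPM (150 to 461), and astroglial-like cells at 126 CPM (116 to 137). Neighbours in the order smooth muscle, fibroblast and astroglial differed beyond counting error, and OPC-like cells held no UMI of it. Of 119 pericyte-like cells 97.5% had a Pdgfrb UMI, at a median depth of 4766 UMIs, and 57.1% after thinning to 500 UMIs. Of endothelial-like cells 0.120% had one, 2 cells of 1666. The pericyte level was 5833 times the endothelial one, with a counting interval of 1611 to 48224 that rests on those 2 UMIs. Pericyte-like cells were called higher than endothelial-like cells by edgeR (adjusted p = 5.47e-33).

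In pericyte-like cells Pdgfrb stood at 1541 CPM in ECiKO replicate 1 (43 UMIs in 6 cells) and 2899 CPM in ECiKO replicate 2 (62 UMIs in 11 cells). It stood at 2089 and 2067 CPM in GlastiKO replicates 1 and 2 (262 and 367 UMIs), and at 2047 and 2062 CPM in control replicates 1 and 2 (305 and 134 UMIs). The GlastiKO and control libraries lay between 2047 and 2089 CPM, while the libraries labelled ECiKO lay on either side. For GlastiKO against control edgeR gave a difference of 0.07 ± 0.28 on the log2 scale (SE; adjusted p = 0.999). This fit called none of 2749 genes, 0% in either direction, with 110 at an unadjusted p under 0.05 and none by DESeq2.

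The ECiKO libraries allowed no test in pericyte-like cells, since 1 of them held fewer than 10 such cells. The ratio to the control library of the same number was 0.753 (0.534 to 1.04) in replicate 1 and 1.41 (1.02 to 1.91) in replicate 2, and these point in opposite directions. With pericyte-like cells taken from clusters, the ratio in replicate 2 was 0.687. Pericyte-like cells numbered 6 and 11 in ECiKO replicates 1 and 2, 26 and 31 in those of GlastiKO, and 32 and 13 in those of control. The sort sets these numbers, so they are not compared. Of 10 astroglial markers 8 were detected in pericyte-like cells, summing to 7906 CPM, and the part of RNA from other cells in these values was not tested.

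Pericyte-like cells held 3.2 times as much Pdgfa as endothelial-like cells over all libraries (2.15 to 4.67). Pdgfa stood there at 0 and 46.8 CPM in ECiKO replicates 1 and 2 (0 and 1 UMIs), 55.8 and 84.5 CPM in GlastiKO replicates (7 and 15 UMIs), and 53.7 and 92.3 CPM in control replicates (8 and 6 UMIs). Both ECiKO values lay below the other 4, on 1 UMI in all, and GlastiKO and control overlapped. Within libraries pericyte-like cells exceeded endothelial-like cells by a log2 fold change of 1.62 ± 0.39 (SE; edgeR adjusted p = 0.000494). GlastiKO differed from control by 0.13 ± 0.60 (edgeR adjusted p = 0.999). Smooth muscle-like cells held more, 682 CPM (457 to 980), from 29 UMIs in 9 of 10 cells, 10.4 times the pericyte level (6.19 to 17.4).

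Among proteins that partner the receptors, Nrp1 was at 88.3 CPM in pericyte-like and 499.8 CPM in endothelial-like cells. Cspg4, the pericyte proteoglycan NG2, was at 743 CPM in pericyte-like cells, with no UMI in endothelial-like cells. Lrp1, an endocytic receptor that binds PDGFRβ, was at 415 against 1.60 CPM, and S1pr1, a receptor for sphingosine 1-phosphate, at 3.53 CPM (2 UMIs) against 704 CPM. All 4 were called by edgeR (largest adjusted p = 1.95e-12, for Nrp1), 2 higher and 2 lower, where 15.7% of all genes were higher and 19.5% lower.

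**Figure D3:**
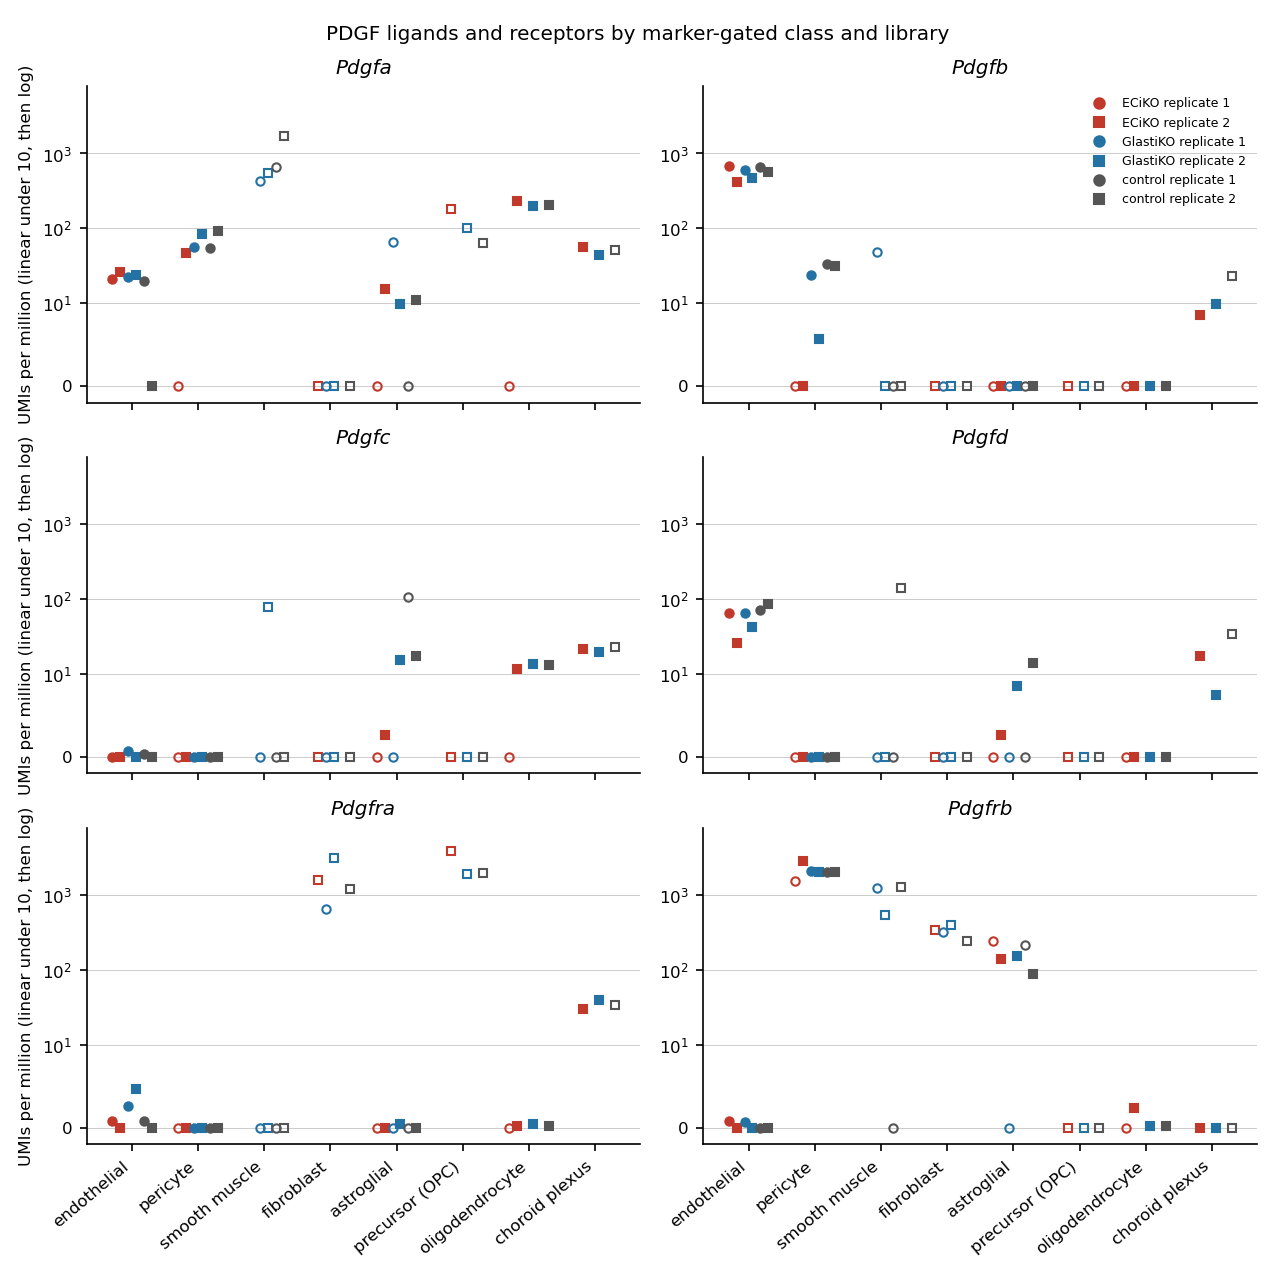
Each PDGF gene in CPM by class and library (linear under 10, then log; open symbols, fewer than 10 cells). Pdgfb and Pdgfd peak in endothelial-like cells, Pdgfrb in pericyte-like cells, and Pdgfra in OPC-like and fibroblast-like cells.

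In the astroglial-like class, astrocytes and any neural stem cells were not told apart. Astroglial-like cells carried Pdgfrb at a larger share of its pericyte level than any of the 9 pericyte markers. Their Pdgfrb was 6.07% of the pericyte level, while the 9 pericyte markers summed to 0.277% (103 against 37097 CPM). The median single marker was at 0.0367%, Abcc9 and Ndufa4l2 had no UMI, and the highest, Notch3, stood at 4.18%, followed by Atp13a5 at 1.76%. The part of pericyte RNA in the astroglial Pdgfrb count was not tested. A Pdgfrb UMI was found in 34.7% of astroglial-like cells, at a median depth of 3813 UMIs, and in 6.75% after thinning to 500 UMIs, against 0.120% and 0 of endothelial-like cells. Astroglial-like cells were called higher than endothelial-like cells (edgeR adjusted p = 1.39e-19) in a contrast with 22.9% of genes higher and 19.7% lower. Pdgfa did not pass there (-0.75 ± 0.48, edgeR adjusted p = 0.214), but it did with classes from clusters (-1.20, adjusted p = 0.0446).

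By group, astroglial Pdgfrb was 139 CPM in ECiKO replicate 2 (105 to 182, 54 UMIs), 154 CPM in GlastiKO replicate 2 (138 to 171, 345 UMIs) and 88.9 CPM in control replicate 2 (75.8 to 104, 164 UMIs). Both intervals lay above that of control. The ratio to control was 1.57 (1.13 to 2.14) for ECiKO and 1.73 (1.44 to 2.1) for GlastiKO, with 1 usable library per group and no test.

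The class was made up differently in the 3 libraries, and its clusters carried different amounts of Pdgfrb. A cluster led by Crym and Lhx2 held 28.1% of the class in ECiKO replicate 2, 66.6% in GlastiKO replicate 2 and 25.8% in control replicate 2. A second, led by Agt and Igsf1, held 11.1%, 18.9% and 44.2% in the same libraries, and the last, of low depth, 52.6%, 12.4% and 30.0%. In the Crym-led cluster Pdgfrb was 190 CPM in ECiKO replicate 2, 189 CPM in GlastiKO replicate 2 and 138 CPM in control replicate 2. In the Agt-led cluster it was 98.6, 80.1 and 69.1 CPM in those libraries.

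Within clusters the ratios to control were smaller for GlastiKO than over the class. They were 1.37 (1.05 to 1.81) in the Crym-led cluster, 1.16 (0.759 to 1.74) in the Agt-led cluster and 1.15 (0.499 to 2.49) in the shallow cluster. For ECiKO they were 1.38 (0.891 to 2.1), 1.43 (0.627 to 2.86) and 1.38 (0.555 to 3.14) in the same order. All 6 ratios were above equality, and 1 interval excluded it. All of them have control replicate 2 as denominator, so they are not independent of each other.

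Astroglial-like cells also held Pdgfc, a ligand of PDGFRα, at 15.1 CPM over all libraries (11.7 to 19.2, 68 UMIs), against 0.355 CPM in endothelial-like cells (2 UMIs). It was at 2.58 CPM in ECiKO replicate 2 (1 UMI), 15.2 CPM in GlastiKO replicate 2 (34 UMIs) and 17.3 CPM in control replicate 2 (32 UMIs). The ratio of ECiKO to control was 0.149 (0.00365 to 0.890). In the shallow cluster, which holds most astroglial-like cells of ECiKO replicate 2, control had no Pdgfc UMI in 122 cells either. In the Crym-led cluster ECiKO had 0 UMIs in 48 cells and control 15 UMIs in 105 cells, an upper limit of 0.758 on the ratio. In the Agt-led cluster ECiKO had 1 UMI in 19 cells and control 17 UMIs in 180 cells. The ratio there was 0.689 (0.0165 to 4.40), an interval that includes equality. Astroglial Pdgfd was likewise 2.58 CPM (1 UMI) in ECiKO replicate 2, 8.49 CPM (19 UMIs) in GlastiKO replicate 2 and 14.1 CPM (26 UMIs) in control replicate 2, with intervals for both ratios that include equality.

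Oligodendrocyte-like cells, the class of the myelinating cells of the brain, were the main source of Pdgfa UMIs. They held 4453 of 4761, a level of 206 CPM (200.1 to 212; chr5:138976014-138997370, minus strand), and 43.9% of the cells had at least 1 at a median depth of 1199 UMIs. That share followed depth, at 22.0% in ECiKO replicate 2, 88.4% in GlastiKO replicate 2 and 83.2% in control replicate 2. In astroglial-like cells 3.87% had one at a median depth of 3813 UMIs. Thinned to 500 UMIs, the shares were 9.63% of oligodendrocyte-like and 0.695% of astroglial-like cells. Oligodendrocyte-like cells exceeded astroglial-like cells by a log2 fold change of 4.36 ± 0.23 (SE; edgeR adjusted p = 5.27e-25), in a contrast with 31.2% of genes higher and 35.7% lower. Pdgfrb was lower in them (-7.45 ± 0.35, edgeR adjusted p = 4.62e-27), and so was Pdgfd, which had no UMI there. Pdgfb had no UMI in either class.

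By group, Pdgfa in oligodendrocyte-like cells was 233 CPM in ECiKO replicate 2 (218 to 249, 910 UMIs), 198 CPM in GlastiKO replicate 2 (189 to 206, 2122 UMIs) and 204 CPM in control replicate 2 (193 to 215, 1421 UMIs). The ratio to control was 1.14 (1.05 to 1.25) for ECiKO and 0.970 (0.907 to 1.04) for GlastiKO, with no test. ECiKO replicate 2 was the shallowest library. Its oligodendrocyte-like cells fell to 32.8%, 28.3% and 21.0% in 3 low-depth clusters that held 2.68%, 6.94% and 0.671% of those of control replicate 2. Transcripts of other cells were among the genes that led these clusters, such as, in 1 cluster each, Hbb-bs (445 CPM against 18.3 CPM in the other oligodendrocyte-like cells), a haemoglobin gene of red cells, and Ttr (578 against 19.6 CPM), a choroid plexus gene. The part of depth and of such RNA in this ratio was not tested.

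Pdgfa also differed between oligodendrocyte clusters. A cluster led by S100b, Klk6 and Enpp6 held 370 CPM in ECiKO replicate 2, 265 CPM in GlastiKO replicate 2 and 269 CPM in control replicate 2. A cluster led by Cntn1 and Il33 held 175, 161 and 162 CPM in the same libraries. The clusters did not overlap, and no test is given because the cells were clustered on their RNA. In the S100b-led cluster the ratio of ECiKO to control was 1.38 (1.21 to 1.57), from 78 and 146 cells, and in the Il33-led cluster it was 1.08 (0.925 to 1.26). These clusters held 3.86% and 4.90% of the oligodendrocyte-like cells of ECiKO replicate 2. In the low-depth clusters with 32.8% and 28.3% of them the ratio was 0.692 (0.228 to 3.44) and 0.994 (0.576 to 1.84), on 3 and 15 control UMIs. For GlastiKO the ratios were 0.984 (0.893 to 1.08) in the S100b-led and 0.994 (0.902 to 1.10) in the Il33-led cluster. In the low-depth cluster with 28.3% of the ECiKO cells GlastiKO had 0.849 (0.353 to 1.98).

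**Figure D4:**
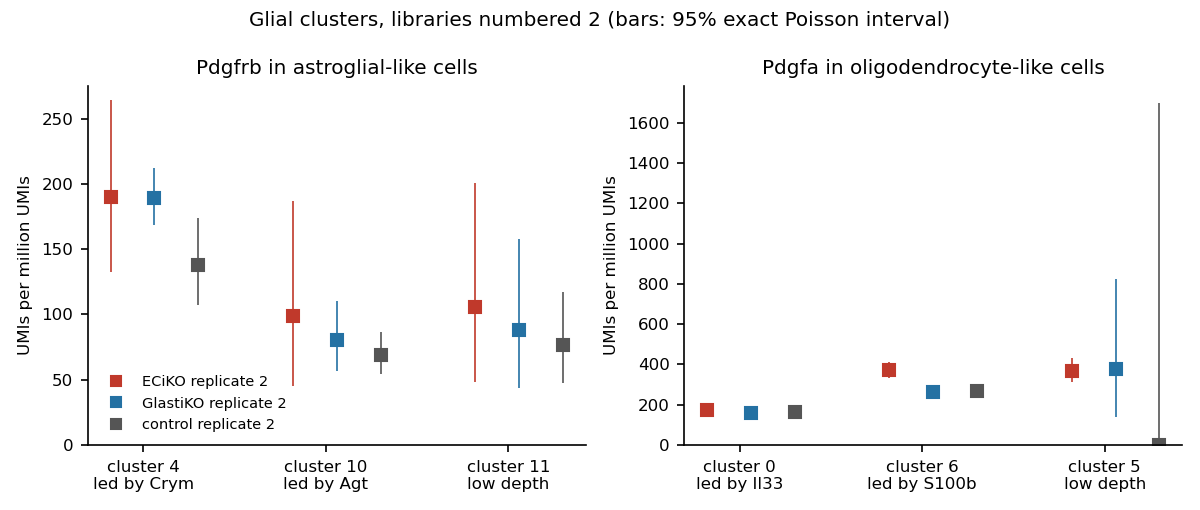
Pdgfrb in astroglial-like clusters and Pdgfa in oligodendrocyte-like clusters in CPM, for the 3 libraries numbered 2 (bars, 95% exact Poisson interval). Pdgfrb is highest in the Crym-led cluster (138 to 190 CPM), and Pdgfa is higher in the S100b-led cluster (265 to 370 CPM) than in the Il33-led one (161 to 175 CPM). The value at 0 in the shallow cluster 5 is from 3 control cells.

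Pdgfc in oligodendrocyte-like cells was 11.5 CPM in ECiKO replicate 2, 13.4 CPM in GlastiKO replicate 2 and 12.9 CPM in control replicate 2, with overlapping intervals. Over all libraries it was 12.9 CPM (11.4 to 14.5), which did not differ from the astroglial level beyond counting error (ratio 0.855, 0.654 to 1.13). Choroid plexus-like cells, at 20.8 CPM (12.1 to 33.4, 17 UMIs), were the highest of the classes with at least 50 cells. Their interval overlapped those of astroglial-like (11.7 to 19.2) and oligodendrocyte-like cells. The gene lies at chr3:81036416-81214040 on the plus strand.

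Pdgfra, the receptor of OPCs and of fibroblasts, was found in few cells because few of those cells were in the libraries (chr5:75152292-75198215, plus strand). The 8 OPC-like cells held 182 of its 304 UMIs, 2357 CPM (2027 to 2725), and each of the 8 cells had at least 1. The 9 fibroblast-like cells held 68 UMIs, 1333 CPM (1035 to 1690), and each cell again had at least 1. OPC-like cells exceeded fibroblast-like cells 1.77-fold (1.33 to 2.37), for counting error alone. Choroid plexus-like cells followed at 35.5 CPM (23.8 to 51.0, 29 UMIs), and no UMI was found in 119 pericyte-like cells. In endothelial-like, astroglial-like and oligodendrocyte-like cells Pdgfra was at 1.42, 0.222 and 0.324 CPM.

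By group, Pdgfra in OPC-like cells was 3847 CPM in ECiKO replicate 2 (63 UMIs in 3 cells), 1897 CPM in GlastiKO replicate 2 (56 UMIs in 3 cells) and 2011 CPM in control replicate 2 (63 UMIs in 2 cells). The ratio to control was 1.91 (1.33 to 2.76) for ECiKO and 0.943 (0.646 to 1.37) for GlastiKO. With 2 or 3 cells a library these intervals leave out the spread between cells, and no difference can be assessed. OPC-like cells also carried Pdgfa, at 104 CPM from 8 UMIs, and neither Pdgfb nor Pdgfd. Both receptors were found together in fibroblast-like cells only among the 4 mural, fibroblast and precursor classes, with 14 UMIs of Pdgfrb there.

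A list of 38 genes around PDGF signalling, in 5 sublists (ligand processing, retention, receptor partners, signal transduction and attenuation), was followed beside the 6 genes. In endothelial-like cells 30 were tested and none was called for either label, with a median log2 fold change of 0.02 for ECiKO and 0.06 for GlastiKO, against -0.03 and 0.00 over all genes tested. The smallest unadjusted p-values belonged to Spry4, a feedback inhibitor of receptor tyrosine kinases, at -1.02 ± 0.53 for ECiKO (edgeR adjusted p = 1.00), and to Plat, the protease that activates PDGF-C, at 0.63 ± 0.28 for GlastiKO (edgeR adjusted p = 1.00). In pericyte-like cells of GlastiKO against control 18 were tested and none was called. Their median was 0.28, against 0.01 over all genes tested, and Cspg4 stood at 0.47 ± 0.28 (edgeR adjusted p = 0.999).

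Between classes the list moved in both directions. Of 31 genes tested, 9 were higher and 11 lower in pericyte-like than in endothelial-like cells, against 15.7% higher and 19.5% lower over all genes, with a median of -0.01 against -0.11 over all genes tested. Of 7 attenuators 2 were higher, 1 was lower and 4 were not called. Among the higher ones was Spry2, a feedback inhibitor, at 115 against 13.1 CPM (log2 fold change 3.36 ± 0.37, edgeR adjusted p = 1.54e-11). In astroglial-like against endothelial-like cells 8 were higher and 13 lower, against 22.9% and 19.7% of all genes, with Lrp1 at 429 against 1.60 CPM and Plat at 51.6 against 394 CPM. In oligodendrocyte-like against astroglial-like cells 7 were higher and 14 lower, against 31.2% and 35.7% of all genes, so the share called was near that of all genes. All 4 receptor partners tested there were lower, among them S1pr1 at 4.03 against 1355 CPM and Nrp1 at 0.602 against 101 CPM.

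As a description, genes outside the marker lists were ranked by the Pearson correlation of log2(CPM + 10) with each PDGF gene over the 22 class-by-library sums, which share libraries and depth. Nearest to Pdgfb were Acvrl1 (r = 0.991), a receptor of the TGF-β family, Fxyd5 (0.987) and Layn (0.984). Nearest to Pdgfrb were Pde8b (0.999), Lhfp (0.985) and Axl (0.979). Pdgfa ran closest to Pdlim2 (0.937), Adcy5 (0.893) and Dock10 (0.858), and Pdgfd to Stx3 (0.965), Trim30a (0.964) and Abcc4 (0.946). Pdgfc ran closest to Slc22a17 (0.907) and Cntn1 (0.899). For Pdgfra the sums do not include OPC-like or fibroblast-like cells, which were too few, so its nearest genes (Sostdc1, r = 0.881, and Ecrg4, r = 0.869, among them) describe the remaining classes.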

How the data were processed

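The authors deposited UMI counts for each gene in each barcode of 6 libraries, with no normalization. Cell Ranger 5.0.0 made them, per the file headers, with mm10 per the labels' protocols, and Cell Ranger 2.1.1 and Seurat 4 are named per the submitters' processing notes. Whether intronic reads were counted is not given in the sources used here. Barcodes were kept from 300 genes up, if mitochondrial UMIs did not exceed 20%, and 49 doublets (0.775%) called with Scrublet in scanpy 1.11.5 were removed.

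A cell joined a class when its mean relative marker level was at least 0.15, exceeded the next class by 0.05 and rested on 3 detected markers; 85 cells lay near this limit. Clusters (Leiden, leidenalg 0.10.2, resolution 1) served as an alternative and for the glial sub-populations. The PDGF genes were left out of gates and clustering. These thresholds, and the test between endothelial subtypes, were set after the data were seen, and the genes, lists and tests were chosen with earlier results of these data known.

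UMIs were summed per class and library, for at least 10 cells, and tested with edgeR 4.0.16 in R 4.3.3 (filterByExpr, TMM, quasi-likelihood F test, Benjamini-Hochberg over all genes tested, threshold 0.05). Group was the only term between groups (3 residual degrees of freedom in endothelial-like cells), and class plus library between classes (10). Its p-values rest largely on a spread pooled over genes. SE is the absolute log2 fold change over the square root of F. DESeq2 1.42.0 was run beside it, and the edgeR models were tested on simulated data. Genes of the pathway list are named by the smallest unadjusted p, up to 6 per comparison, and the nearest 3 genes by correlation. Positions come from GENCODE M21 on mm10. Overlapping and antisense genes were not examined.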

Additional observations from a re-analysis of the deposited data

How the results depend on the processing

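No PDGF gene was called between groups under any alternative run, in endothelial-like or pericyte-like cells. The number of genes called moved more. For ECiKO against control in endothelial-like cells it was 19, with 3 by DESeq2, 29 with the replicate number as a block and 6 to 34 with 1 library left out. It was 1 without the endothelial cluster picked for its share of control replicate 1 cells. For GlastiKO it was 25, with 2 by DESeq2, 37 with the replicate block, 6 to 33 with 1 library left out and 10 without that cluster. Pericyte-like cells of GlastiKO gave 0 calls, with 1 without a filter on low counts, 2 with the replicate block, 2 with classes from clusters, 2 with ECiKO replicate 2 in the fit and 0 to 11 with 1 library left out. The replicate block changed no call of a PDGF gene. Over 8516 genes, deviations of same-numbered libraries from their group means correlated at 0.0557 to 0.0931. The libraries numbered 2 held only 21 to 66 endothelial-like cells, and counting noise lowers such correlations. They therefore cannot decide whether same-numbered libraries share a shift.

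Signs turned only in values that were not called. Pericyte Pdgfrb of GlastiKO against control was -0.016 with classes from clusters and Pdgfa -0.21. With 1 library left out, pericyte Pdgfrb ranged from -0.039 to 0.17 and Pdgfa from -0.24 to 0.39, and endothelial Pdgfb from -0.81 to 0.22 for ECiKO and from -0.45 to 0.073 for GlastiKO. Arterial against capillary Pdgfb ranged from -0.20 to 0.052.

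Between endothelial subtypes DESeq2 called 192, 142 and 179 genes for arterial against capillary, venous against capillary and arterial against venous, where edgeR called 373, 340 and 351, and leaving out 1 library gave 153 to 320, 97 to 251 and 155 to 294. Between classes leaving out 1 library gave 2845 to 3830 calls (pericyte against endothelial), 2968 to 4693 (astroglial against endothelial) and 4956 to 7498 (oligodendrocyte against astroglial). The ratio of pericyte Pdgfrb in ECiKO to control replicate 2 was 0.687 with classes from clusters. The cause of these shifts was not tested. Of 193 levels under other cell sets 186 stayed within the counting interval, while 19 of 26 shares of cells with a UMI moved when cells were thinned. The pericyte fit on 4 libraries is the one reported, so that alternative added nothing, and OPC contrasts could not be fitted with fewer than 10 cells a library.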
